A study of Mus musculus with 6 samples.

Results

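Mitochondrial ribosomal proteins are the protein parts of the mitoribosome, the machine that translates the few messages encoded in mitochondrial DNA. They were described here in livers that lack the fatty acid elongase Elovl6. The members were the protein-coding mouse genes whose symbol starts with Mrpl (large subunit) or Mrps (small subunit) followed by a number, reached from array probes through RefSeq accessions, with pseudogenes left out. They came to 78 genes, 49 Mrpl and 29 Mrps, of 22911 genes named on the array. All 78 were well above background on all 6 arrays and none was saturated, so all 78 were tested.

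The study compared 3 male mice with a liver-specific knockout of Elovl6 (LKO) with 3 male control mice, titled Flox. The elongase lengthens palmitate to stearate. Both groups received a high-sucrose diet (D11725) for 14 days, with food withdrawn for the last 4 hours. Each liver went onto its own one-colour Agilent array. The sources used here do not name the Cre driver, the age or the strain of the mice. Whole liver was measured, so fewer cells of a type and less RNA per cell cannot be told apart.

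By textbook account the mitoribosome has a large subunit, which joins amino acids, and a small subunit, which reads the messenger RNA. All of its proteins are encoded in the nucleus, made in the cytosol and imported, whereas its ribosomal RNAs come from mitochondrial DNA. It makes core subunits of the respiratory chain and of ATP synthase, on which the liver depends for fatty acid oxidation and other energy-demanding work. Many members descend from proteins of bacterial ribosomes, and others are found in mitochondria only.

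All 6 arrays shared 1 slide and 1 scan, and 52.1% to 56.6% of their spots were well above background. Elovl6, the targeted gene, had processed signals of 62.3, 88.5 and 99.6 in LKO livers, against 6364, 12350 and 6624 in control livers, so each mouse matched its label (log2 change -6.51 ± 0.30, SE, limma adjusted p = 0.0028). All 8 hepatocyte markers on the list were well above background on all 6 arrays. Their summed relative signal was 5650 to 6000 in LKO livers and 5400 to 5580 in control livers. Of 14171 genes tested, 2 passed a limma adjusted p of 0.05 (0.0141%). All values below are relative signals, the processed signal divided by the 75th percentile of the array, and log2 changes are LKO minus control.

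No member of the mitoribosome passed the test. The changes were small in both directions, from 1.21-fold lower (Mrpl9) to 1.11-fold higher (Mrpl14) in LKO livers, with 66 of 78 members within 10% either way. The smallest adjusted p of a member was 0.35. At an unadjusted p under 0.05 there were 2 members, both lower, which is 2.56% of members against 5.6% of all genes tested that were lower at that level. The counts at an unadjusted p under 0.05 were 0 members higher against 5.56% of all genes. Limma with trend and robust eBayes and limma with a replicate block also gave 0 members past the threshold. The 95% intervals of single members, not adjusted for their number, reached from 1.4-fold lower to 1.36-fold higher, and 76 of the 78 spanned 0.

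**Figure D1:**
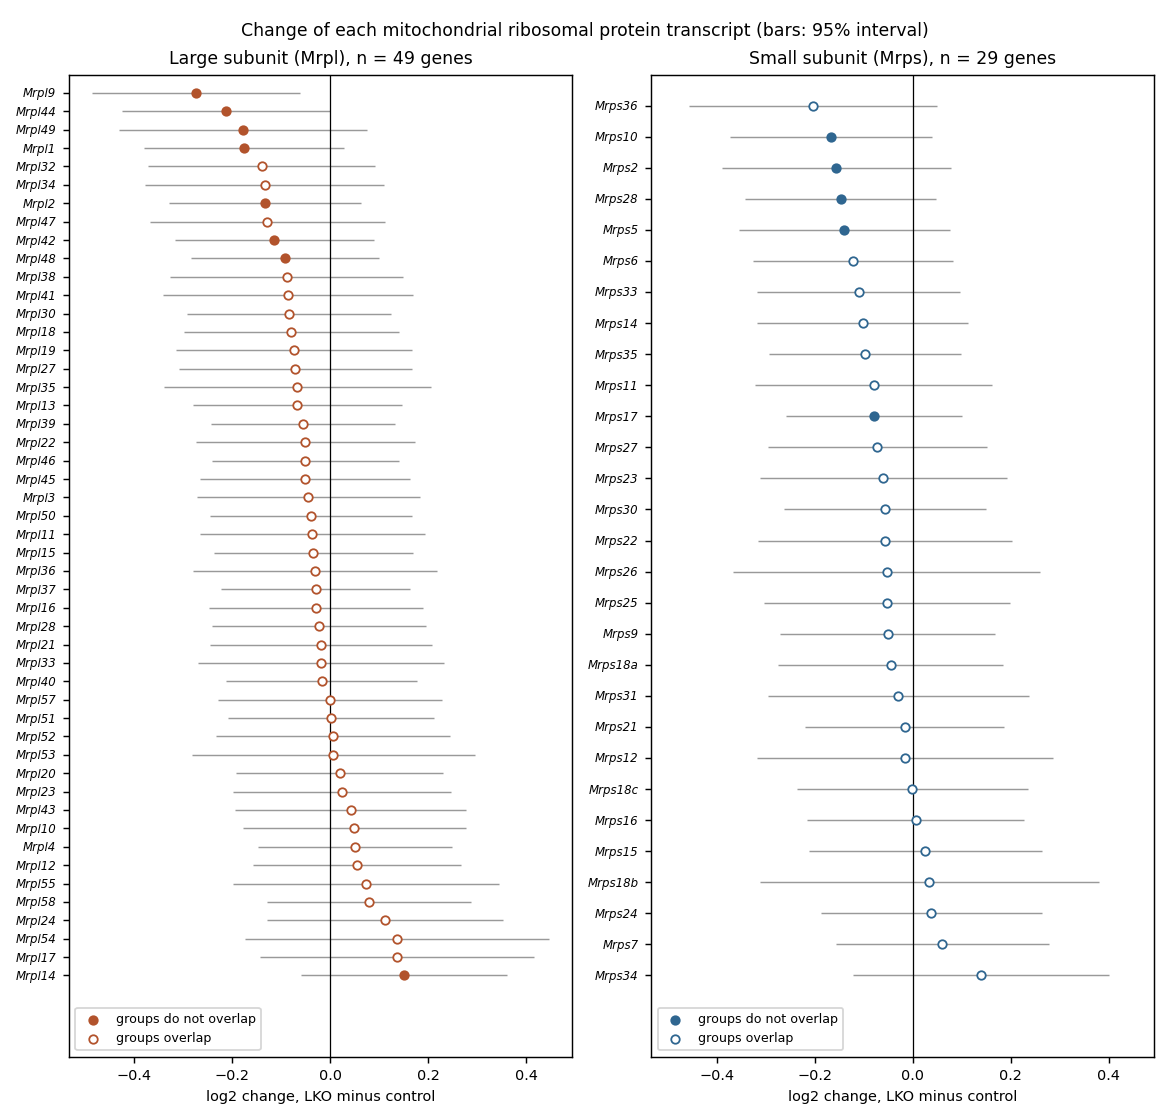
Log2 change (LKO minus control, horizontal axis) of each member with its 95% interval from limma, large subunit on the left and small subunit on the right; filled points are members whose 3 LKO and 3 control values do not overlap. The points run from -0.27 (Mrpl9) to 0.15 (Mrpl14), and 76 of 78 bars cross 0.

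More members lay on the lower side than on the higher side. In LKO livers 57 of 78 members (73.1%) had a lower mean, against 49.2% of all genes tested, and the median log2 change over members was -0.05 against 0.00 (0.00313) over all genes. With arrays scaled to their medians instead, 66 of 78 members were lower, at a median of -0.09 beside -0.04 over all genes. The groups did not overlap for 13 members, 12 lower and 1 higher in LKO. That is 15.4% of members lower against 9.21% of all genes, and 1.28% higher against 8.11% of all genes. Members share the same 6 arrays and are not replicates, so these shares carry no test.

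The size of this lean depended on single mice and on the scaling. Taken as the log2 value minus the control mean, the median over members was -0.11, 0.03 and -0.05 in LKO 1 to 3, against 0.10, -0.06 and -0.05 in control 1 to 3. Only control 1 stood above all LKO livers, and the other controls lay within the LKO range. With median scaling the median over members was 0.14 in control 1, against -0.09 and -0.06 in control 2 and 3. LKO 1 to 3 were then at -0.15, 0.04 and -0.14. Control 1 stood out less under the scalings given next, while the lean stayed. With quantile normalization the medians were -0.08, 0.01 and -0.06 in LKO 1 to 3, against 0.04, -0.03 and -0.01 in control 1 to 3, and 56 of 78 members were lower at a median change of -0.04. With normexp, a model-based background correction, they were -0.08, 0.02 and -0.07 in LKO livers, against 0.03, -0.03 and -0.02 in control livers, and 55 members were lower at a median change of -0.05. Control 1 was the highest control for 66 of 78 members (84.6%, against 44.5% of all genes), and no member had its lowest value there. Within LKO, mouse 1 was the lowest for 52 members (66.7%, against 35.2% of all genes) and mouse 2 the highest for 59 (75.6%, against 34.3%). Without control replicate 1, 39 of 78 members were lower, the median log2 change was -8.27e-05, and 17 members did not overlap on the higher side (21.8%, against 16.8% of all genes in that fit). The count of members that did not overlap on the lower side was then 13 (16.7%, against 14.6% of all genes). It included all 12 of the full comparison, which follows from the definition. Groups that lie apart on a probe stay apart when a mouse is left out. Without LKO replicate 1, 43 members were lower and the median was -0.03, and without LKO replicate 2, 63 were lower at a median of -0.08, and 26 had groups apart on the lower side (33.3%, against 13.7% of all genes in that fit). LKO 2 and 3 lay in another column of the slide than LKO 1 and the controls, and with slide column as a covariate, which leaves LKO 1 alone against the controls, 67 members were lower (85.9%), at a median of -0.11.

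**Figure D2:**
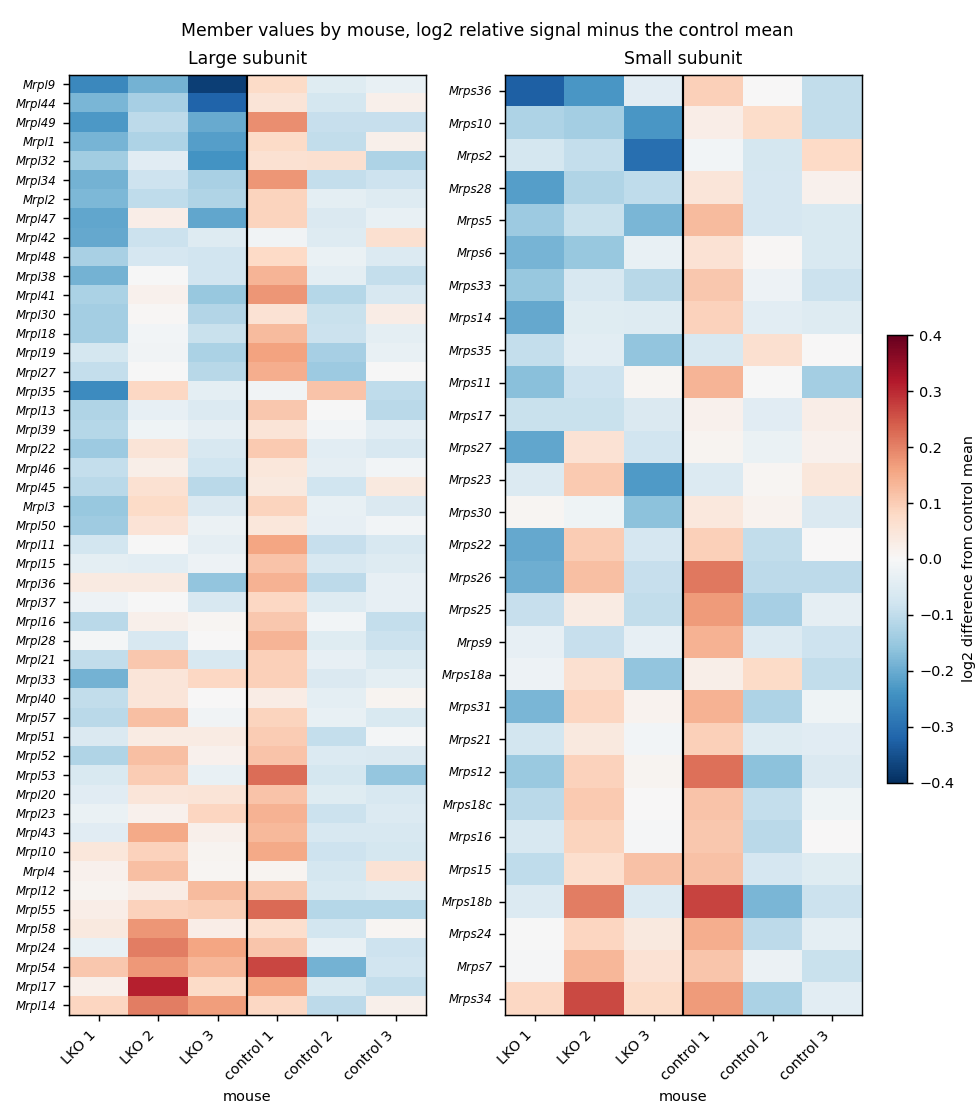
Log2 relative signal of each of the 78 members in each mouse, minus the mean of the 3 controls (colour scale to 0.4 either way), with LKO mice left of the black line and controls right of it; rows are ordered by the log2 change within a subunit. The control 1 column is raised in nearly all rows and the LKO 1 column is lowered in most, so mice of a group differ across the whole set.

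The spread between mice of a group exceeded the difference between groups for most members. The range within at least 1 group was larger than the difference of the group means for 73 of 78 members. This count was not made over all genes, so it does not set the members apart from other genes. The median range was 0.15 within LKO and 0.19 within control on the log2 scale, against a median absolute change of 0.06. The members were nevertheless measured tightly. Their median SD within groups was 0.09, against 0.15 over all genes tested, and 73 of 78 lay under that median of all genes. Array measures moved with the mice too. The share of spots well above background was lowest within each group in LKO 2 (52.5%) and control 1 (52.1%), which had the highest member medians, and their part in the result was not tested.

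Large and small subunit members had nearly the same values in every mouse. The median over Mrpl members was -0.11, 0.03 and -0.04 in LKO 1 to 3, against 0.10, -0.06 and -0.05 in the controls. The median over Mrps members was -0.11, 0.04 and -0.05 in LKO 1 to 3, against 0.10 (0.105), -0.06 and -0.05 in the controls. Within a mouse the 2 subunits differed by at most 0.01 on the log2 scale (from -0.00829 in LKO 2 to 0.0121 in LKO 3). The median log2 change was -0.04 for 49 Mrpl members and -0.06 for 29 Mrps members, a difference of 0.02. Lower values were found in 34 Mrpl members (69.4%) and 23 Mrps members (79.3%). No test of the subunits against each other was made, because their members are not replicates.

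**Figure D3:**
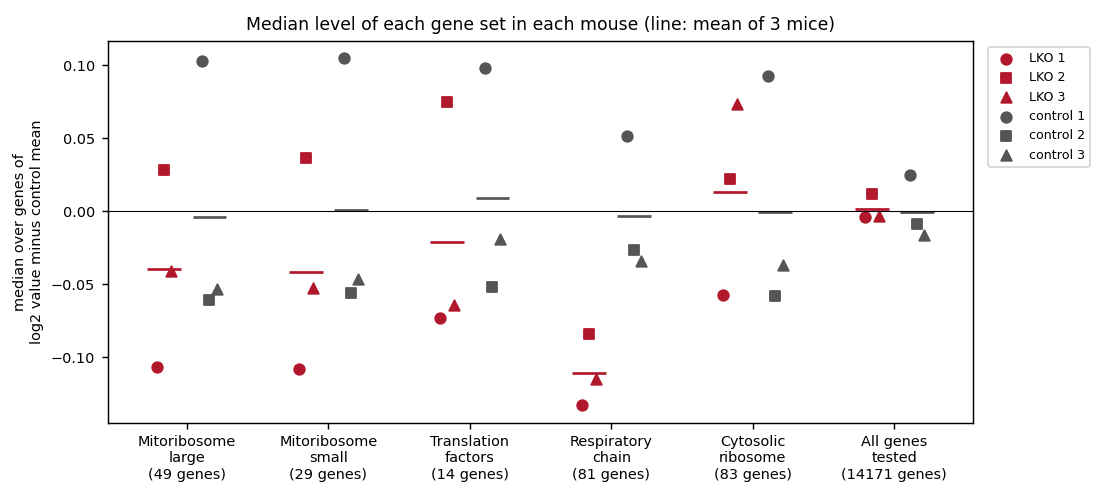
Median over the genes of a set of the log2 value minus its control mean (vertical axis), one point per mouse, LKO in red left of control in grey, with a line at the mean of 3 mice. Both mitoribosome subunits spread alike from -0.11 in LKO 1 to 0.10 in control 1 and overlap between groups, whereas the respiratory chain points of LKO lie between -0.13 and -0.08, below all controls.

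Some gene names do not match the subunit that holds the protein. In mammalian mitoribosome structures, Mrps30 and Mrps18a are parts of the large subunit, and Mrps36 is known as a part of the 2-oxoglutarate dehydrogenase complex. With members placed by structure, the median log2 change was -0.04 for 51 large subunit genes and -0.06 for 26 small subunit genes. Mrps30 had 4.50, 4.42 and 3.99 in LKO livers, against 4.60, 4.52 and 4.30 in control livers (log2 change -0.06 ± 0.09, SE, adjusted p = 0.85). Mrps18a had 10.3, 10.9 and 9.35 in LKO livers, against 10.6, 11 and 9.75 in control livers (-0.05 ± 0.10, adjusted p = 0.90). Both overlapped between groups.

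Mrps18a has relatives in the small subunit, Mrps18b and Mrps18c, all related to a single bacterial protein. Mrps18b had 23.7, 28.4 and 23.7 in LKO livers, against 29.7, 21.7 and 23.2 in control livers (log2 change 0.03 ± 0.15). Mrps18c had 14.0, 16.2 and 15.1 in LKO livers, against 16.3, 14.1 and 14.9 in control livers (-0.00 ± 0.10, a value of -0.000403). For each of these genes a second bright probe differed between groups by less than 0.01 on the log2 scale (0.0046 for Mrps18b and -0.00434 for Mrps18c), and the groups overlapped. Mrps36 had 6.88, 7.34 and 8.36 in LKO livers, against 9.23, 8.65 and 8.06 in control livers (-0.20 ± 0.11, adjusted p = 0.54). LKO 3 lay inside the control range.

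Members were also split by ancestry, a split chosen after their values were seen. The 45 members with a homolog in bacterial ribosomes had a median log2 change of -0.04, with 32 lower (71.1%). The 33 members found in mitochondria only had a median of -0.05, with 25 lower (75.8%). Both classes followed the same mice, with medians of -0.10 (bacterial homologs) and -0.11 (mitochondria only) in LKO 1, against 0.11 and 0.09 in control 1.

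Mrpl9 showed the largest decrease. Its bacterial relative sits at the base of the mobile L1 stalk, where spent transfer RNA leaves. It had 4.49, 4.71 and 4.13 in LKO livers, against 5.66, 5.19 and 5.26 in control livers (log2 change -0.27 ± 0.09, SE, limma adjusted p = 0.35). All LKO livers lay below all controls, and a second, dimmer probe gave a log2 change of -0.18. Mrpl1, the protein of the L1 stalk itself, had 4.41, 4.61 and 4.31 in LKO livers, against 5.29, 4.69 and 5.09 in control livers (-0.18 ± 0.09, adjusted p = 0.51). The groups lay apart here by a narrow margin, between LKO 2 and control 2. On the second probe of Mrpl1 (-0.14) they overlapped.

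Mrpl44, a large subunit protein with a ribonuclease III-like fold near the exit of the peptide tunnel, had 3.02, 3.12 and 2.74 in LKO livers, against 3.55, 3.26 and 3.47 in control livers. Its log2 change was -0.21 ± 0.09 (adjusted p = 0.45), and its second probe gave -0.24. Mrpl49, a protein found in mitochondria only, had 2.40, 2.62 and 2.45 in LKO livers, against 3.20, 2.64 and 2.64 in control livers (-0.18 ± 0.11, adjusted p = 0.59). Control 1 was far above the other controls for Mrpl49, and LKO 2 was nearly level with control 2 and control 3.

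Further large subunit members with groups apart were chosen after their values were seen. Mrpl2, part of the conserved core around the catalytic centre, had 27.3, 28.8 and 28.4 in LKO livers, against 32.9, 30.1 and 29.8 in control livers (log2 change -0.13 ± 0.08). Mrpl42 (-0.11 ± 0.09) and Mrpl48 (-0.09 ± 0.08), both found in mitochondria only, also had all LKO values below all control values. The second bright probe of Mrpl48 gave 0.02 with overlapping groups. Neither these nor Mrpl2 passed, with adjusted p between 0.60 and 0.72.

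Among small subunit members, Mrps10, a protein of the subunit's head, had 11, 10.9 and 10.2 in LKO livers, against 12.2, 12.6 and 11.2 in control livers (log2 change -0.17 ± 0.09, adjusted p = 0.54). Mrps2, on the solvent side, had 5.90, 5.80 and 5.02 in LKO livers, against 6.15, 5.90 and 6.54 in control livers (-0.16 ± 0.10, adjusted p = 0.61). The LKO 1 value of Mrps2 was level with control 2. The second Mrps2 probe gave -0.12 with overlapping groups, and its highest value was that of LKO 2. Mrps28, related to bacterial S1, had 15, 16.1 and 16.3 in LKO livers, against 18.1, 16.7 and 17.7 in control livers (-0.15 ± 0.08, adjusted p = 0.57). On the probe that stood for each gene, LKO values of all 3 genes were below every control. Mrps5, near the entry of the messenger RNA channel (-0.14 ± 0.09), and Mrps17 (-0.08 ± 0.08) did not overlap either and were chosen after their values were seen. On the second probe of Mrps17 (-0.07) the groups overlapped.

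**Figure D4:**
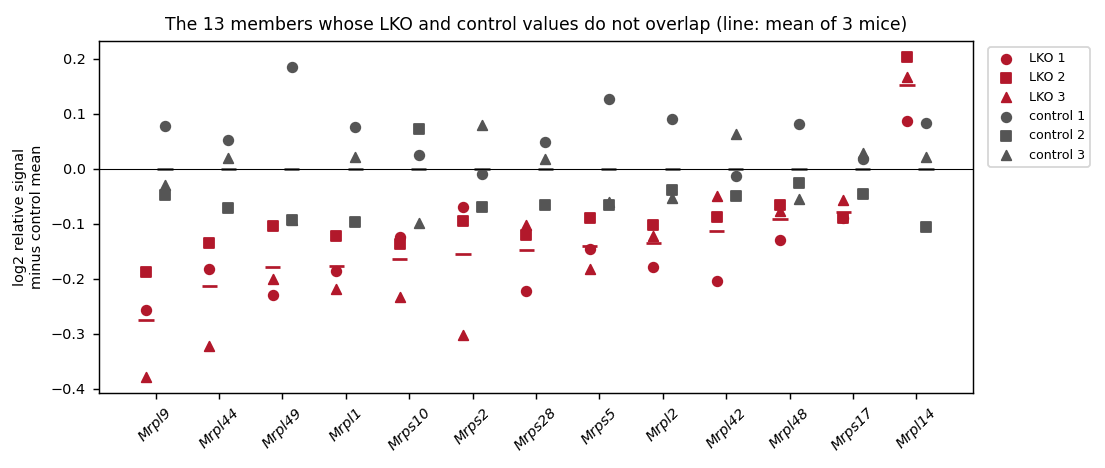
Log2 relative signal minus the control mean (vertical axis) in each mouse for the 13 members whose groups do not overlap, LKO in red left of control in grey, line at the mean of 3 mice. All LKO points of the 12 lower members lie below the lowest control, except that LKO 1 and control 2 of Mrps2 are level as drawn. The margins are largest in Mrpl9, and Mrpl14 alone lies higher in LKO livers.

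Mrpl14, which faces the small subunit and offers a docking site for the assembly factor Malsu1, was the one member higher in all LKO livers. It had 47.4, 51.4 and 50.1 in LKO livers, against 47.3, 41.5 and 45.3 in control livers (log2 change 0.15 ± 0.09, adjusted p = 0.58). LKO 1 and control 1 were nearly equal, and with median scaling no member had groups apart on the higher side. Mrps34, which stabilises the small subunit, had 22.7, 25.7 and 22.6 in LKO livers, against 24.1, 19.6 and 20.8 in control livers (0.14 ± 0.11, adjusted p = 0.68). Control 1 lay inside the LKO range.

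The remaining members named for the smallest p on the higher side overlapped between groups as well. Mrpl17, near the tunnel exit, had 7.82, 9.56 and 8.12 in LKO livers, against 8.59, 7.38 and 7.21 in control livers (log2 change 0.14 ± 0.12). Mrpl24, also at the tunnel exit, had 19.4, 22.8 and 22.1 in LKO livers, against 21.4, 19.4 and 18.7 in control livers (0.11 ± 0.10, but -0.02 with slide column as a covariate). Mrpl54 had 9.05, 9.48 and 9.21 in LKO livers, against 10.1, 7.37 and 7.96 in control livers (0.14 ± 0.13). For Mrpl17 and Mrpl54 every LKO value exceeded control 2 and control 3.

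Mrpl58, a relative of release factors that can free stalled peptides and is built into the large subunit, had 14.7, 16.2 and 14.6 in LKO livers, against 15, 13.6 and 14.4 in control livers (log2 change 0.08 ± 0.09). Its second probe gave -0.03, so its probes disagreed in direction. Mrpl12, the stalk protein that recruits translation factors, had 29.0, 29.4 and 31.4 in LKO livers, against 31.1, 27.6 and 27.8 in control livers (0.05 ± 0.09). Mrpl57 had 28.7, 33.6 and 30.6 in LKO livers, against 32.9, 30.3 and 29.6 in control livers (-0.00 ± 0.10, a value of -0.00079). In all 3 genes the groups overlapped. Of 21 members with several bright probes, the probes gave the same sign for 13 and mixed signs for 8. The other members, not named here, had log2 changes within the range from Mrpl9 to Mrpl14 and overlapped between groups.

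Promoters of the members were read from RefSeq sequences of GRCm38.p6, which covered 69 of 78 members. The array design names an earlier build, and the sequences were joined by symbol only. Nuclear genes of mitochondrial translation are known for NRF1 and ETS-type (GABP) elements, so short cores of these motifs were searched on both strands in windows from 250 bases before to 50 after the start. The NRF1 core TGCGCA was present in 21 members (30.4%), against 8.79% of all 27025 genes in the promoter table and 14.1% of those tested here. The ETS core CCGGAAG was present in 26 members (37.7%), against 9.93% and 17.7%. The YY1 core AAGATGG was found in 13 (18.8%, against 7.28% and 8.07%), and the TATA core TATAAA in 5 (7.25%, against 15.7% and 10.9%). The NRF1 core reads the same on both strands. A match is a run of letters and not a shown binding site.

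Members with the NRF1 core had a median log2 change of -0.04 and those without it -0.05. For the ETS core these medians were -0.02 and -0.05. The NRF1 core was found in 12 of 43 large and 9 of 26 small subunit genes, and the ETS core in 15 and 11. Shown here are the bases just before the start of the 6 members with the largest decreases among those with groups apart, and of the 1 with an increase, 5′ to 3′ on the gene's strand, with cores in capitals. They come from chr3:94443236-94443335 (+ strand), chr1:79775918-79776017 (+ strand), chr19:6057756-6057855 (- strand), chr5:96210015-96210114 (+ strand), chr17:47369097-47369196 (+ strand), chr2:28467966-28468065 (+ strand) and chr17:45686249-45686348 (+ strand) of GRCm38.p6.
Mrpl9: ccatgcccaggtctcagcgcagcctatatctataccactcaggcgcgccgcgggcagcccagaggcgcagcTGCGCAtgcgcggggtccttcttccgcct
Mrpl44: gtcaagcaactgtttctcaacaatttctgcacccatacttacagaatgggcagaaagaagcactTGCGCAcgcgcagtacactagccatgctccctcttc
Mrpl49: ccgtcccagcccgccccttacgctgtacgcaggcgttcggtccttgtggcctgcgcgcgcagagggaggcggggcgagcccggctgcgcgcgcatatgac
Mrpl1: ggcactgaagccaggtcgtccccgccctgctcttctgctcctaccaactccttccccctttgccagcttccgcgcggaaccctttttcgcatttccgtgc
Mrps10: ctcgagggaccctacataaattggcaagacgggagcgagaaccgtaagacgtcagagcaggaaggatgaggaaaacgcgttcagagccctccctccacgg
Mrps2: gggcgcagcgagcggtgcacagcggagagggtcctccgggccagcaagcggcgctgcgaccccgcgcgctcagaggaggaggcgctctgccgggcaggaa
Mrpl14: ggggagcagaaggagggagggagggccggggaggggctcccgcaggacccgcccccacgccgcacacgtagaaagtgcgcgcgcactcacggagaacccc
Mrpl9 and Mrpl44 each hold an NRF1 core within 40 bases of the start, and Mrpl49, Mrpl1, Mrps10, Mrps2 and Mrpl14 hold none of the searched cores in these letters. In the whole searched window Mrpl49 held a YY1 core, while Mrpl1, Mrps10 and Mrps2 held none of the cores. Lower members were thus found with and without a core.

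Many members share a promoter region with a neighbour. A gene on the opposite strand started within 1000 bases upstream of 26 of 69 members (37.7%), against 12.3% of all genes in the table and 17.6% of those tested. In 1 case both partners are members, the large subunit gene Mrpl46 and the small subunit gene Mrps11, whose starts lie 42 bases apart. The stretch between them, shown because both subunits are served from it, is chr7:78783090-78783131 (- strand) of GRCm38.p6.
Mrpl46: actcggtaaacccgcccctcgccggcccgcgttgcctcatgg
Mrpl46 had 3.92, 4.26 and 3.96 in LKO livers, against 4.32, 4.09 and 4.16 in control livers (log2 change -0.05 ± 0.08). Mrps11 had 1.32, 1.40 and 1.49 in LKO livers, against 1.63, 1.48 and 1.35 in control livers (-0.08 ± 0.10). Both overlapped between groups. Of the 23 partners tested, 13 were lower in LKO livers (median log2 change -0.01). At an unadjusted p under 0.05, which 5.6% of all genes reached on the lower side and 5.56% on the higher side, there were 2, Ndufb5, a complex I subunit (-0.20 ± 0.08, adjusted p = 0.40), and Helq (-0.26 ± 0.10, adjusted p = 0.43). Twnk, the helicase of mitochondrial DNA and partner of Mrpl43, was at -0.01 ± 0.11, and Sars2, the mitochondrial seryl-tRNA synthetase and partner of Mrps12, at 0.01 ± 0.09. These pairs were chosen after their values were seen.

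Mitoribosome proteins with other symbols and genes acting around the mitoribosome gave 0 genes past the threshold. Of the 5 proteins with other symbols, 2 were lower and 3 higher (median log2 change 0.02), as in Gadd45gip1 (0.12 ± 0.10), Aurkaip1 (0.06 ± 0.09) and Chchd1 (-0.03 ± 0.09). Of 25 assembly and ribosomal RNA modification factors, 13 were lower (median -0.02), and 3 did not overlap, all lower (12%, against 9.21% of all genes). Rpusd4, a pseudouridine synthase of mitochondrial ribosomal RNA, had 1.53, 1.57 and 1.54 in LKO livers, against 1.87, 1.71 and 1.82 in control livers (-0.22 ± 0.08, adjusted p = 0.38). Mterf3 (-0.12 ± 0.08) and the small subunit maturation factor Rbfa (-0.10 ± 0.07) were the others.

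Of 14 translation factors, 10 were lower (median log2 change -0.05). Gfm1, the elongation factor that moves the ribosome along the message, had 22.5, 22.2 and 21.6 in LKO livers, against 27.1, 25.3 and 23.8 in control livers (-0.20 ± 0.09, adjusted p = 0.46). All LKO values lay below all controls. Oxa1l, which inserts new proteins into the inner membrane, was at -0.14 ± 0.10, and Guf1 at 0.13 ± 0.09, both overlapping. The direction of Guf1 turned with normexp (-0.14) and as the mean over its probes (-0.06). Of 19 genes of mitochondrial aminoacyl-tRNA synthesis tested, out of 20 listed, 11 were lower and 2 did not overlap (10.5%, both lower, against 9.21% of all genes). These were Iars2 (-0.26 ± 0.09, adjusted p = 0.38, but 0.01 as the mean over its probes) and Qrsl1, a subunit of the amidotransferase that makes glutaminyl-tRNA (-0.39 ± 0.14, adjusted p = 0.39). Pars2 was at 0.32 ± 0.16 and overlapped.

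Of 19 genes of mitochondrial DNA transcription, replication and RNA processing, 11 were lower (median log2 change -0.03). Elac2, which trims transfer RNA ends, was 0.18 ± 0.10 with groups apart, Tfam, the packaging and transcription factor of mitochondrial DNA, -0.09 ± 0.08, and the helicase Supv3l1 0.07 ± 0.09 (-0.07 as the mean over its probes). Of 9 nuclear regulators, 4 were lower (median 0.01) and 0 had groups apart. The coactivator Ppargc1a had 0.660, 0.536 and 0.914 in LKO livers, against 0.75, 1.25 and 0.803 in control livers (-0.41 ± 0.26, adjusted p = 0.61). Its relative Pprc1 was at 0.33 ± 0.23 and Myc at -0.35 ± 0.26. Their intervals are wide, and the groups overlapped.

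The respiratory chain differed from the mitoribosome in these livers by its values, although this difference was not tested. Among 81 nuclear-encoded respiratory chain subunits tested, 71 (87.7%) were lower and 48 (59.3%, against 9.21% of all genes) did not overlap on the lower side, with a median log2 change of -0.11 and 0 past the threshold. In the mitoribosome the same figures were 73.1%, 15.4% and -0.05. Per mouse, the respiratory chain median was -0.13, -0.08 and -0.12 in LKO 1 to 3, against 0.05, -0.03 and -0.03 in the controls. Without control replicate 1 the medians were -0.08 for the respiratory chain, with 66 of 81 lower, and -8.27e-05 for the mitoribosome. In the same order, the sets lay closer in LKO 1 (-0.13 and -0.11) than in LKO 2 (-0.08 and 0.03) or LKO 3 (-0.12 and -0.05). LKO 2 and 3 shared the other slide column. With slide column as a covariate, which leaves LKO 1 alone against the controls, the median changes were -0.13 and -0.11. Cytosolic ribosomal proteins, 83 tested, had 30 lower (36.1%), none with groups apart in this scaling, and a median of 0.02. Per mouse, their median was -0.06, 0.02 and 0.07 in LKO 1 to 3, against 0.09, -0.06 and -0.04 in control 1 to 3. A raised control 1 was thus not particular to the mitoribosome. Counts moved with the scaling. Under quantile normalization 12 were lower and 8 higher with groups apart (14.5% and 9.64%, against 9.17% and 8.59% of all genes). Under normexp these counts were 12 and 7 (14.5% and 8.43%, against 9.23% and 8.92% of all genes). Under median scaling 62 of 83 were lower, 5 of them with groups apart (6.02%, against 11.6% of all genes). The median was below 0 with median scaling (-0.02), quantile normalization (-0.00221), normexp (-0.00831) and slide column as a covariate (-0.06), and without control replicate 2 (-0.01), control replicate 3 (-0.00252) or LKO replicate 3 (-0.02).

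Markers of other liver cells were measured on the same arrays, and none of those tested passed. Of 4 neutrophil markers tested, 3 did not overlap between groups and were higher in LKO livers (75%, against 8.11% of all genes). The summed relative signal of the 5 markers on the array was 4.05 to 17 in LKO livers, against 2.04 to 2.93 in control livers. Ngp was not well above background on any array. The summed signal of 8 Kupffer cell markers was 99.9 to 118 in LKO livers, against 80.4 to 110 in control livers. Their part in the values of the mitoribosome was not tested.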

How the data were processed

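Liver RNA of 3 LKO and 3 control mice was measured, 1 array per mouse. The labels' protocols give 0.1 µg of RNA per Cy3 labelling, and the submitters' processing notes name Feature Extraction 11.5.1.1. The authors deposited processed signals, which are intensities after background correction by that software (per the file headers), beside raw median intensities. Deposited flags (above background, saturated, outlier) are other values set by the software. The authors' value table equals the processed intensity times 1 constant per array (2.08 to 2.48). Its column medians were 63.7, 59.1 and 62.2 for LKO and 55.3, 62.9 and 61.5 for control. It is linear and not centred, with no source here for the constants.

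Accessions were matched without versions to RefSeq genes of GRCm38.p6. Of 56605 probes, 32994 (58.3%) had 1 symbol, 0 several, and the rest none. Each processed signal was divided by its array's 75th percentile (265 to 298 signal units) before log2. Outlier spots were left out, spots of a probe averaged, and a gene stood by its probe with the highest mean. Genes well above background on all 3 arrays of a group were tested (14171). Tests were two-sided moderated linear models (limma 3.58.1, R 4.3.3), adjusted by Benjamini-Hochberg across those genes. The labels list the samples as separate, and p-values measure only the spread between them. The number of arrays limits the precision. On simulated data (200 of 14171 genes changed), the LKO against control fit recovered 76.3% of 2-fold, 94% of 4-fold and 98.2% of 8-fold changes, and 5.3% of calls were false. Noise was drawn independently for each gene there, so these shares need not hold for the measured data.

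The members and gene lists were chosen with earlier results of these data known, so lists are described by counts and medians. Members were named by rule: the 6 largest changes per direction with groups apart, the 6 smallest p per direction, 8 members of special position, and 3 genes by p from each pathway list. The normexp alternative used median foreground signals, since the files hold no mean foreground.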

Additional observations from a re-analysis of the deposited data

How the results depend on the processing

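No member passed the threshold under any of the 16 alternatives, which changed the scaling, the background correction, the filter, the probe rule, the eBayes options, the block, the slide column or 1 mouse. Among these alternatives was also the authors' value table. It is the processed signal times 1 constant per array, so it gave the main values again by construction. The count of members lower in LKO, 57 in the main analysis, ran from 39 (without control replicate 1) to 67 (slide column as a covariate). The count of 39 is 50% of members, against 47.2% of all genes in that fit, so the lean was then nearly gone. The median over members lay between -0.11 and -8.27e-05. Leaving out 1 mouse gave 12 to 26 members lower with groups apart. Groups apart on a probe stay apart with fewer mice, so a count at or above that of the main analysis was given by the definition. The count was highest without LKO replicate 2 (26, or 33.3% against 13.7% of all genes) and without control replicate 3 (20, or 25.6% against 14.7%). It was lowest without LKO replicate 1 (12, or 15.4%), where the share over all genes was about the same (15.7%). The difference of subunit medians lay between 0.00363 and 0.0229 when 1 mouse was left out (0.00363 without control replicate 3, 0.0121 without LKO replicate 3) and was 0.00112 with the slide column, a fit that sets only LKO 1 against the controls. Median scaling shifted the median of all genes to -0.04 and that of the respiratory chain to -0.15. Leaving out 1 mouse moved the medians of regulators (-0.157 to 0.0481) and of genes of mitochondrial DNA transcription, replication and RNA processing (-0.0518 to 0.0234). Of all genes, 2 passed in the main analysis. There were 1 without a filter on dim probes, 1 with probes well above background on all 6 arrays, and 13 with trend and robust eBayes. Without 1 mouse, 1 to 15 passed (4 without control replicate 1, 15 without LKO replicate 1). Besides the sign changes given with Mrpl24, Guf1, Iars2 and Supv3l1, small changes turned sign for Mrps30, Gadd45gip1 and Aurkaip1 (slide column), Mrps18a (without LKO replicate 3), Chchd1 (without control replicate 1), Mrps18b and Mrpl57 (5 alternatives each) and Mrps18c (3 alternatives). The replicate block gave 3 genes and 0 members, and changed no call of a member. Correlations over genes between same-numbered mice were 0.04, -0.05 and -0.07 for numbers 1 to 3. Those between mice of different numbers ran from -0.11 to 0.16, so they cannot tell whether the numbers pair the mice. The labels do not say so either. With 3 mice a group, the 95% intervals of single members reached 1.4-fold lower and 1.36-fold higher. These bounds are not limits of detection. On simulated data 76.3% of 2-fold changes were recovered, so changes larger than these bounds could also be missed by the test. The cause of these movements was not tested.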
